A study of Pan troglodytes with 8 samples.

Results

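Basal intermediate progenitor cells (bIP) sorted from chimpanzee cerebral organoids were set against 3 other sorted populations: radial glia of the apical type (aRG), radial glia of the basal type (bRG) and BCL11B-positive neurons (N), to describe the transcripts that peak or dip in the intermediate state. A gene was called a peak gene when both bIP libraries lay above all 6 libraries of the other populations and both reached at least 10 CPM (counts divided by library size and scaled, so that levels compare across libraries). It was called a dip gene when both bIP libraries lay below all 6 and all 6 reached at least 10 CPM. By this rule 544 genes were peak genes and 767 were dip genes, of 60583 named rows in the count table. All 1311 passed the filter on low counts, which kept 35382 genes. Since the rule uses the levels themselves, levels and fold changes of these genes describe them and are no independent evidence that they differ.

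Intermediate progenitors arise from radial glia, leave the ventricular surface, divide in the subventricular zone and give rise mainly to pairs of neurons. The step is marked in the mammalian cortex by the T-box transcription factor EOMES (also called TBR2), which follows the proneural factors NEUROG1 and NEUROG2. Proneural factors also switch on Delta-type ligands, through which a differentiating cell activates Notch in its neighbours, and regulators of detachment and migration.

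All 8 libraries came from 1 chimpanzee induced pluripotent stem cell line, SandraA, grown as whole-sphere cerebral organoids and collected at week 8 of culture, give or take 3 days. Cells were separated by fluorescence-activated sorting into bIP, aRG, bRG and N, with 2 libraries per population numbered 1 and 2. No treatment or genotype separates the groups. The neuron gate is labelled by BCL11B, while the sources used here do not name the antigens of the other gates, so a high EOMES level in bIP may be part of the gate. Each library was made from RNA of 10000 cells, amplified by 12 to 17 PCR cycles in a SmartSeq2-type protocol that does not mark strand. Whether libraries 1 and 2 came from separate cultures is not stated by the labels. The p-values therefore reflect only how far these libraries scatter, and that scatter may be technical. In such bulk samples fewer cells of a type and less RNA per cell cannot be told apart.

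Library totals were 24649971 to 33245892 counts. The defining markers fitted the bIP label: EOMES, NEUROG1, PPP1R17, HES6, INSM1 and NHLH1 were all peak genes. The radial glia markers SOX2, VIM, PAX6 and HES1, though not SLC1A3, each lay between the radial glia and N libraries, as did the N markers BCL11B, TBR1, STMN2 and SYT1, though not SNAP25, in the opposite direction. Libraries numbered 1 held more MALAT1 than libraries numbered 2 in every population, with shares of 3.61% to 8.57% of counts over all 8. Summed levels of 20 choroid plexus and cortical hem genes were 151 and 142 CPM in bIP, against 1178 and 3607 in aRG, 221 and 252 in bRG and 112 and 184 in N. Summed levels of 18 mesenchymal, vascular and immune genes were 191 and 201 CPM in bIP, against 451 and 2092 in aRG, 343 and 412 in bRG and 98.5 and 70.6 in N. The second aRG library stood apart in both sums, and the part of these cells in differences between bIP and aRG was not tested.

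Peak genes made up 1.54% of the genes tested and dip genes 2.17%. Among the 13147 tested genes that reached 10 CPM in at least 1 library, the shares were 4.14% and 5.83%. The same rule applied in turn to the other populations gave 1146 peak and 628 dip genes for aRG, 107 and 243 for bRG, and 2782 and 1032 for N. The gap between the groups, taken as the lowest library of the higher side over the highest library of the lower side with 1 CPM added to each, had a median of 1.15 over the bIP peak genes. It reached 2 for 58 bIP peak genes, against 28 for aRG, 0 for bRG and 297 for N. Dip genes of bIP had narrower gaps, with a median of 1.10, and 3 genes reached 2, against 11 for aRG, 0 for bRG and 244 for N. The levels were scaled with TMM factors, which even out differences in RNA composition. With unscaled CPM 708 genes were peak genes and 591 dip genes. Peak genes were thus 41.5% of both sets together with TMM scaling and 54.5% without it. The genes nearest to the limit of 10 CPM were SLC25A18 at 10.1 CPM inside the peak set and ZNF774 at 9.82 outside it. For the dip set the nearest gene outside was LDB2 at 9.91 CPM.

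**Figure D1:**
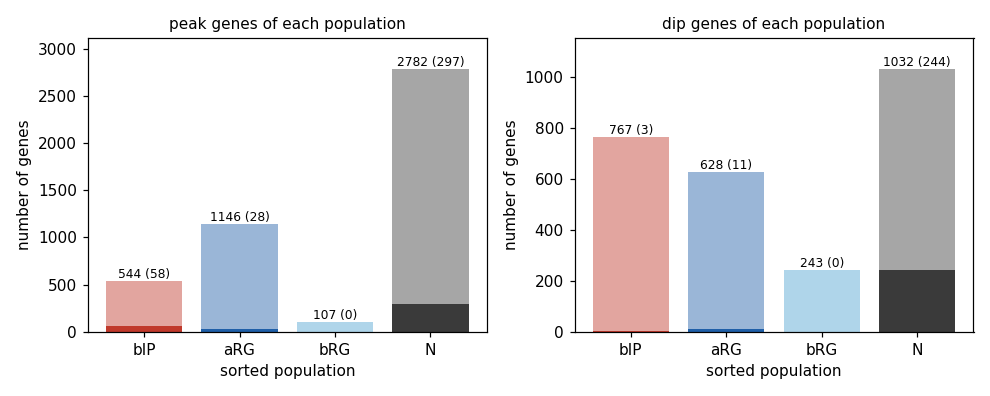
Number of genes with both libraries of a population above (left) or below (right) all 6 other libraries, for bIP, aRG, bRG and N. Full bars count all such genes and the dark part, in parentheses, those with a gap ratio of at least 2; bIP had 544 peak genes (58 with that gap) and 767 dip genes (3 with that gap).

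Across all genes, 238 genes were higher in bIP than the mean of aRG, bRG and N (0.673% of those tested) and 71 were lower (0.201%), together 309 (0.873%), by edgeR's quasi-likelihood test with Benjamini-Hochberg adjusted p under 0.05. With the library number as a block these counts were 532 and 370. Of the 238 genes, 164 were peak genes, and of the 71 genes, 32 were dip genes. Each of the 309 calls had the same direction within the libraries numbered 1 and within those numbered 2. The calls were made from these same libraries, so that agreement is no separate support for them. Against aRG alone 473 genes were higher in bIP (1.34%) and 529 lower (1.5%), against bRG 162 (0.458%) and 203 (0.574%), and against N 524 (1.48%) and 376 (1.06%). With the block the counts were 1007 and 1115 against aRG, 535 and 586 against bRG, and 1025 and 1140 against N. Without the second aRG library 368 genes were higher and 319 lower than in aRG, out of 39785 tested. A stricter test asked whether bIP lay beyond each of the 3 populations, using the largest of the 3 p-values. By edgeR's test 0 genes passed in either direction (0% of those tested), with 196 higher and 248 lower at an unadjusted p under 0.05 and a smallest adjusted p of 0.0885, for CHRNA3. DESeq2 called 47 higher and 3 lower in that test, and edgeR with the library number as a block called 16 higher and 1 lower.

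The second bIP library weighed most in these calls. Without it, 64 genes were called higher and 14 lower than the mean of the others, and without the first bIP library 153 and 44. Of the 76 genes named by the rule for named genes that were called against the mean, 25 were called in every fit that left out 1 library, and 31 without the second bIP library. Where a gene below lost its call in this way, the largest adjusted p is given beside it.

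The peak gene with the widest gap was EOMES, the T-box factor that defines intermediate progenitors. EOMES was at 1355 and 1538 CPM in bIP, against 90.3 and 184 in aRG, 48.99 and 122 in bRG, and 31.1 and 10.95 in N. The groups were far apart, with a gap of 7.33 (log2 fold change 4.53, SE 0.37, adjusted p = 0.000427). NHLH1, a basic helix-loop-helix (bHLH) factor of early differentiating neurons, was at 537 and 719 CPM in bIP, against 51.4 and 64.6 in aRG, 39.3 and 49.7 in bRG, and 75.3 and 10.7 in N. INSM1, a zinc-finger repressor that in mice promotes the formation of basal progenitors, was at 73.5 and 76.7 CPM in bIP, against 9.54 and 13.6 in aRG, 7.32 and 4.84 in bRG, and 17.1 and 3.84 in N. Both were high in the 2 bIP libraries alone (log2 fold change 3.71, SE 0.44, adjusted p = 0.00209 for NHLH1; log2 fold change 3.05, SE 0.39, adjusted p = 0.00338 for INSM1). INSM2, the only other member of the INSM family, was also a peak gene, at 11.8 and 10.995 CPM in bIP, against 0.55 and 3.74 in aRG, 0.130 and 2.26 in bRG, and 0.734 and 0.431 in N. It did not pass the test against the mean of the others (adjusted p = 0.0749, edgeR), and with the block it did (adjusted p = 0.0132).

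**Figure D2:**
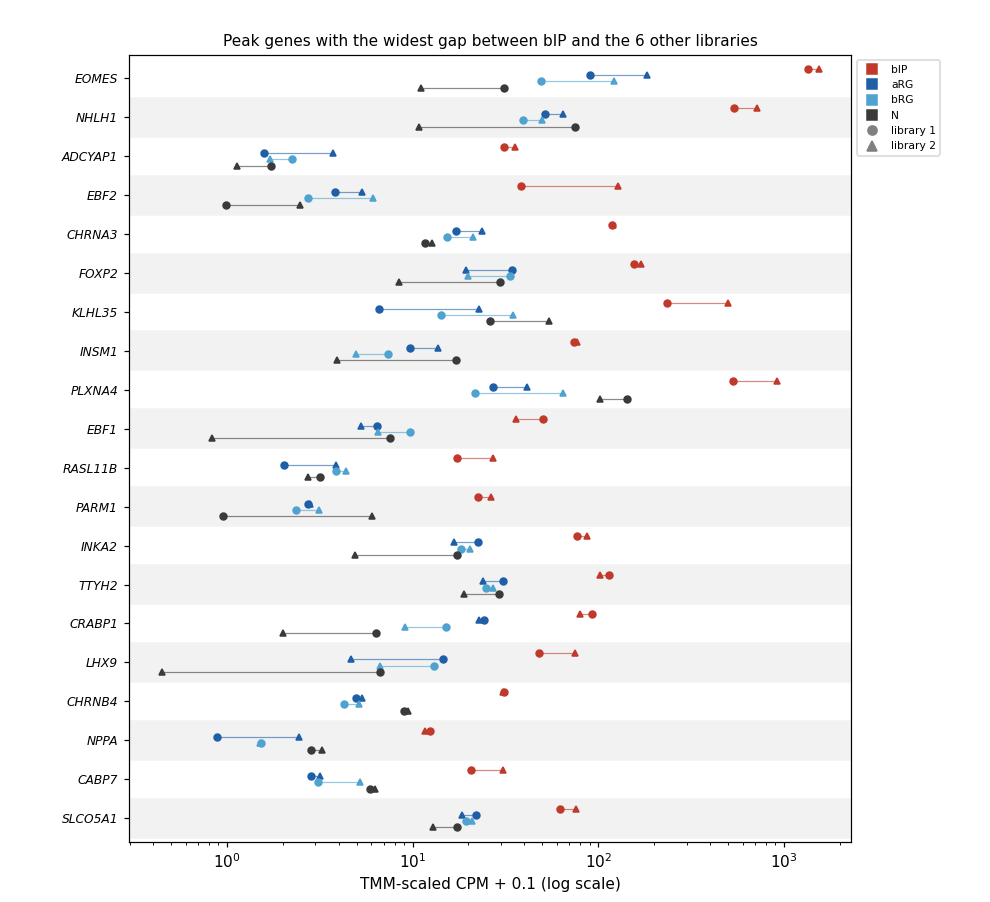
TMM-scaled CPM plus 0.1, on a log axis, of the 20 peak genes with a regular symbol and the widest gap, one row per gene, in the 2 libraries of bIP (red), aRG, bRG and N. In every row both bIP libraries lie to the right of the other 6, by a factor of 7.33 for EOMES and 2.75 for SLCO5A1 with 1 CPM added.

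Of 25 intermediate progenitor markers, 24 were tested and 17 were peak genes. Set beside this, 1.54% of all genes tested were peak genes, and 4.14% of those at 10 CPM or more in some library. Against the mean of the others 15 of the 24 rose by edgeR with adjusted p under 0.05, and the other 9 did not pass. With the block 18 rose, NEUROD1, DLL1 and CORO1C being added. Of all 35382 genes tested 0.673% rose, and 532 rose with the block. The median log2 fold change of the list was 2.01, against 0.08 over all genes tested. NEUROG1, a proneural factor, was at 78.6 and 40.4 CPM in bIP, against 17.8 and 21.9 in aRG, 5.63 and 10.6 in bRG, and 0 and 0 in N. Its bIP level was at least 485 times that of N, where no read was counted, taking 3 counts per N library as the floor. NEUROG2, its close relative, was at 386 and 322 CPM in bIP, against 131 and 159 in aRG, 92.4 and 114 in bRG, and 280.5 and 184 in N. It was a peak gene with a narrow gap of 1.15, the first N library being next in order (log2 fold change 1.22, SE 0.21, adjusted p = 0.0178, and 0.155 without bIP library 1). PPP1R17, an inhibitor of protein phosphatases found in primate intermediate progenitors, was at 97.7 and 262 CPM in bIP, against 11.98 and 20.9 in aRG, 13.7 and 18.4 in bRG, and 64.1 and 15.5 in N. The bIP libraries of PPP1R17 were far from each other and still lay above the rest (log2 fold change 3.04, SE 0.43, adjusted p = 0.00617, and 0.101 without bIP library 2). SSTR2, a somatostatin receptor, was at 527 and 997 CPM in bIP, against 35.9 and 73.01 in aRG, 55.2 and 133 in bRG, and 257 and 401 in N. N held the next highest level of SSTR2, above both kinds of radial glia (log2 fold change 2.68, SE 0.34, adjusted p = 0.00309).

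The 8 markers that were not peak genes differed in where they overlapped. NEUROD1, a bHLH factor downstream of EOMES, was at 43.5 and 105 CPM in bIP, against 9.701 and 14.8 in aRG, 6.44 and 23.4 in bRG, and 64.6 and 19.6 in N. DLL1, a Notch ligand, was at 180.2 and 111 CPM in bIP, against 120.1 and 112 in aRG, 73.3 and 49.4 in bRG, and 85.5 and 60.8 in N. For NEUROD1 the first N library and for DLL1 both aRG libraries lay within the bIP range. TFAP2C, a factor of basal progenitor formation in mice, lay between radial glia and N. SMOC1 and CXADR were passed by 1 or both N libraries, and PENK and ELAVL2 were low throughout, at 3.59 CPM or less. BTG2, an antiproliferative gene, had 0 counts in all 8 libraries and was not tested.

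In the wider list of bHLH factors and their inhibitors, 7 of 31 tested genes were peak genes: NEUROG1, NEUROG2, NEUROD4, NHLH1, HES6, TCF4 and TCF12. Against the mean of the others 5 rose and 2 fell, and with the library number as a block 9 rose and 2 fell. Over all genes tested 1.54% were peak genes, 0.673% rose and 0.201% fell. Of genes at 10 CPM or more in some library 4.14% were peak genes. NEUROD4, a neuronal differentiation factor, was at 21.6 and 31.8 CPM in bIP, against 8.33 and 2.003 in aRG, 3.01 and 6.197 in bRG, and 0.618 and 0.0431 in N. HES6, a HES family member that opposes HES1, was at 276 and 409 CPM in bIP, against 82.8 and 108 in aRG, 61.6 and 96.9 in bRG, and 75.7 and 40.4 in N. Both were high in bIP alone (log2 fold change 3.73, SE 0.58, adjusted p = 0.0103, and 0.0814 without bIP library 2 for NEUROD4; log2 fold change 2.17, SE 0.26, adjusted p = 0.00216 for HES6). TCF4, an E protein that pairs with proneural factors, was at 1606 and 1934 CPM in bIP, against 994 and 855 in aRG, 782 and 691 in bRG, and 1400.1 and 911 in N. Its test against the mean gave an adjusted p of 0.0531, and 0.0033 with the block. TCF12, a second E protein, had the narrowest gap of the 7 genes, 1.01. Of the genes that fell against the mean, HES1 was higher in bIP than in N. HES1 was at 13.2 and 22.9 CPM in bIP, against 373 and 226 in aRG, 172 and 111 in bRG, and 4.13 and 2.89 in N. MXD3 differed little from N, with a log2 fold change of -0.017 against N under a filter of 5 CPM. MXD3, a MAX partner of proliferating cells, and HES1, the main Notch target of radial glia, were the 2 genes that fell (log2 fold change -1.73, SE 0.30, adjusted p = 0.0176, and 0.118 without bIP library 1 for MXD3; log2 fold change -1.56, SE 0.32, adjusted p = 0.0462, and 0.268 without bIP library 1 for HES1).

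Among 29 tested Notch pathway genes, 4 were peak genes, set beside 4.14% of genes at 10 CPM or more in some library, 3 rose and 1 fell against the mean of the others, set beside 0.673% and 0.201% of all genes tested, and 6 rose and 1 fell with the block. The median log2 fold change was -0.01. DLL3, a Delta-type ligand that acts within the cell, was at 210.5 and 491 CPM in bIP, against 11.5 and 16.4 in aRG, 17.9 and 37.6 in bRG, and 52.1 and 78.98 in N. Both bIP libraries lay well above the rest, the second above the first (log2 fold change 3.58, SE 0.32, adjusted p = 0.000443). With the block, DLL3 also passed the test against each of the other populations (adjusted p = 0.00102). MFNG, a fringe enzyme that modifies Notch receptors, was at 64.7 and 39.8 CPM in bIP, against 18.7 and 14.5 in aRG, 14.5 and 17.7 in bRG, and 3.17 and 0.259 in N. MFNG was lowest in N (log2 fold change 2.76, SE 0.49, adjusted p = 0.021, and 0.11 without bIP library 1). Mastermind proteins are coactivators of Notch target transcription. MAML2 was at 12.8 and 20.1 CPM in bIP, against 7.78 and 8.78 in aRG, 3.92 and 2.36 in bRG, and 2.24 and 0.604 in N. MAML3, which is outside the list and was named after its values were seen, was at 90.3 and 92.3 CPM in bIP, against 28.4 and 35.2 in aRG, 21.2 and 28.4 in bRG, and 42.3 and 11.3 in N. Both were peak genes and rose (log2 fold change 2.30, SE 0.44, adjusted p = 0.0331, and 0.393 without bIP library 2 for MAML2; log2 fold change 1.72, SE 0.35, adjusted p = 0.0429, 0.116 without bIP library 1 and 0.228 without bIP library 2 for MAML3). The receptors NOTCH1, NOTCH2 and NOTCH3 were stepwise lower, with bIP between radial glia and N.

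EBF factors are regulators of neuronal differentiation and migration. Of 4 EBF genes tested, EBF1, EBF2 and EBF3 were peak genes, all 3 higher than the mean of the others, a family picked after its values were seen. Of all genes tested 1.54% were peak genes, and 4.14% of those at 10 CPM or more in some library. EBF2 was at 38.3 and 127 CPM in bIP, against 3.73 and 5.21 in aRG, 2.62 and 6.01 in bRG, and 0.889 and 2.37 in N. The second bIP library was far above the first, and both were above the rest with a gap of 5.61 (log2 fold change 4.71, SE 0.44, adjusted p = 0.00066). EBF1 was at 50.1 and 36.1 CPM in bIP, against 6.36 and 5.15 in aRG, 9.62 and 6.39 in bRG, and 7.42 and 0.733 in N. EBF3 was at 17.5 and 23.8 CPM in bIP, against 7.58 and 5.095 in aRG, 6.05 and 3.84 in bRG, and 1.55 and 2.03 in N. LHX9, a LIM-homeodomain factor, was at 47.7 and 74.96 CPM in bIP, against 14.5 and 4.57 in aRG, 12.9 and 6.61 in bRG, and 6.61 and 0.345 in N. A kind of radial glia had the next highest mean after bIP for all 3 (log2 fold change 2.91, SE 0.52, adjusted p = 0.0214, and 0.0877 without bIP library 1 for EBF1; log2 fold change 2.43, SE 0.35, adjusted p = 0.0069, and 0.132 without bIP library 2 for EBF3; log2 fold change 3.16, SE 0.62, adjusted p = 0.0376, and 0.237 without bIP library 2 for LHX9). EBF and LHX9 transcripts are also known from Cajal-Retzius cells, so the list that holds them was set beside these values. Of its 15 tested genes 4 rose, the 3 EBF genes and LHX9, and the others did not pass. Over all genes tested 0.673% rose. CALB2, a calretinin gene of those cells, was at 34.8 and 15.6 CPM in bIP, against 12.7 and 26.3 in aRG, 53.1 and 152 in bRG, and 334 and 375 in N. CALB2 was thus highest in N and was no peak gene, with an adjusted p of 0.104 against the mean and 0.0482 lower with the block. In this CALB2 ran against its list. The 15 tested genes, EBF genes and LHX9 included, had a median log2 fold change of 0.79 against the mean. That median was 1.10 against aRG, 0.50 against bRG and 1.58 against N. With the block 8 of the 15 were higher than N and 1 lower, set beside 1025 and 1140 of 35382 genes tested. Summed over the 16 listed genes, the level was 591 and 407 CPM in bIP, against 431 and 252 in aRG, 442 and 320.2 in bRG, and 575 and 437 in N. The sum includes the EBF genes, LHX9 and CALB2 themselves, and CALB2 made up most of it in N. It is therefore no separate measure of Cajal-Retzius cells, and CALB2 is only 1 gene of the list. The part of such cells in the EBF levels was not tested.

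CHRNA3, the alpha-3 subunit of nicotinic acetylcholine receptors, was at 118 and 121 CPM in bIP, against 17.01 and 23.6 in aRG, 15.3 and 21.2 in bRG, and 11.6 and 12.6 in N. CHRNB4, the beta-4 subunit that assembles with it, was at 31.03 and 30.6 CPM in bIP, against 4.83 and 5.27 in aRG, 4.18 and 5.06 in bRG, and 8.85 and 9.36 in N. For both subunits the bIP libraries lay close together and far above the rest (log2 fold change 2.86, SE 0.22, adjusted p = 0.000371 for CHRNA3; log2 fold change 2.37, SE 0.28, adjusted p = 0.00209 for CHRNB4). The 2 genes lie next to each other in RefSeq order on the NHGRI_mPanTro3-v2.0 assembly, followed by ADAMTS7, a metalloproteinase gene that was also a peak gene. CHRNA3 overlaps CHRNA5 in that annotation, and the libraries carry no strand, so their reads may be shared. Of 16 nicotinic receptor genes tested, a family picked after its values were seen, only these 2 were peak genes. In that family 7 genes reached 10 CPM in some library. Peak genes were 1.54% of all genes tested and 4.14% of those at 10 CPM or more in some library.

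ADCYAP1, the precursor of the neuropeptide PACAP, was at 31.1 and 35.7 CPM in bIP, against 1.49 and 3.65 in aRG, 2.14 and 1.604 in bRG, and 1.62 and 1.03 in N. NPPA, the precursor of atrial natriuretic peptide, was at 12.3 and 11.6 CPM in bIP, against 0.785 and 2.36 in aRG, 1.42 and 1.42 in bRG, and 2.74 and 3.15 in N. ADCYAP1 separated the groups more than NPPA did, with gaps of 6.89 and 3.03 (log2 fold change 4.16, SE 0.37, adjusted p = 0.000443 for ADCYAP1; log2 fold change 2.67, SE 0.45, adjusted p = 0.0165, and 0.132 without bIP library 2 for NPPA). NPPA was no peak gene when the reads were counted on the human genome, whereas the other 19 of the 20 widest peak genes were. CRABP1, a cytoplasmic retinoic acid binding protein, was at 92.7 and 79.4 CPM in bIP, against 24.2 and 22.7 in aRG, 14.96 and 8.996 in bRG, and 6.26 and 1.897 in N. CRABP1 declined across the other populations, with aRG highest and N lowest among them (log2 fold change 3.04, SE 0.34, adjusted p = 0.0017). CABP7, a neuronal calcium-binding protein, was at 20.6 and 30.8 CPM in bIP, against 2.75 and 3.06 in aRG, 3.01 and 5.13 in bRG, and 5.83 and 6.21 in N. Its groups were apart by a gap of 3.00 (log2 fold change 2.63, SE 0.33, adjusted p = 0.00308, and 0.0816 without bIP library 2). In RefSeq CABP7 overlaps ZMAT5. Examples of other genes described here that overlap a neighbour are CNTN2 with RBBP5, INKA2 with DDX20, PLK3 with DYNLT4, TP53INP1 with NDUFAF6, LIG1 with ZSWIM9, FLRT3 with MACROD2, METAP1D with SLC25A12 and ARHGEF4 with SMIM39.

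KLHL35, a kelch-like family member, was at 235 and 501 CPM in bIP, against 6.52 and 22.6 in aRG, 14.1 and 34.8 in bRG, and 25.9 and 54.02 in N. It had the smallest adjusted p of the blocked test against each population, 0.000202 (log2 fold change 3.92, SE 0.43, adjusted p = 0.00166 against the mean without the block). TTYH2, a tweety-family membrane protein, was at 114 and 102 CPM in bIP, against 30.6 and 23.9 in aRG, 24.8 and 27.2 in bRG, and 29.3 and 18.9 in N. Its paralogue TTYH1, a radial glia gene, ran the other way, at 185 and 136 CPM in bIP, against 1048 and 902 in aRG, 945 and 720.1 in bRG, and 146 and 135 in N. TTYH2 was higher than the mean of the others and TTYH1 lower (log2 fold change 2.07, SE 0.22, adjusted p = 0.00139 for TTYH2; log2 fold change -1.59, SE 0.23, adjusted p = 0.00653, and 0.156 without bIP library 2 for TTYH1). INKA2, an inhibitor of the kinase PAK4, was at 76.3 and 86.9 CPM in bIP, against 22.5 and 16.7 in aRG, 18.2 and 20.4 in bRG, and 17.3 and 4.79 in N. PARM1, a mucin-like membrane protein, was at 22.5 and 26.4 CPM in bIP, against 2.63 and 2.71 in aRG, 2.27 and 3.05 in bRG, and 0.85 and 5.95 in N. RASL11B, a small Ras-like GTPase, was at 17.3 and 27.1 CPM in bIP, against 1.92 and 3.77 in aRG, 3.76 and 4.28 in bRG, and 3.09 and 2.63 in N. For PARM1 the ranges of aRG, bRG and N overlapped. SLCO5A1, a member of the organic anion transporter family, was at 62.02 and 76.3 CPM in bIP, against 21.95 and 18.3 in aRG, 19.3 and 20.7 in bRG, and 17.3 and 12.8 in N. All 4 genes rose against the mean of the others. Of these 4, only SLCO5A1 kept its call in every fit without 1 library, and without the second bIP library the adjusted p was 0.056 for INKA2, 0.0942 for PARM1 and 0.0983 for RASL11B.

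Guidance and migration genes steer cells and axons after a progenitor has left the ventricular surface. Of 36 such genes tested, 11 were peak genes, and against the mean of the others 13 rose and 1 fell, or 18 rose and 1 fell with the block. Over all genes tested 1.54% were peak genes, 0.673% rose and 0.201% fell. Of genes at 10 CPM or more in some library 4.14% were peak genes. With the block 532 rose and 370 fell of 35382 genes tested. The median log2 fold change was 0.99, against 0.08 over all genes. By population the list median was 1.30 against aRG, 1.02 against bRG and 0.31 against N. Summed levels of the 36 genes were 5466 and 7473 CPM in bIP and 6462 and 6460 in N. In aRG they were 2140 and 3084.5 CPM, and in bRG 2384 and 3623.5. As a list these genes were thus about as high in N as in bIP. PLXNA4, a semaphorin receptor, was at 534 and 916 CPM in bIP, against 27.1 and 41.2 in aRG, 21.6 and 64.3 in bRG, and 142 and 102 in N. The gap was 3.73, with N next in order (log2 fold change 3.68, SE 0.33, adjusted p = 0.000443). NRP2, a semaphorin and VEGF co-receptor, was at 371 and 414 CPM in bIP, against 24.8 and 40.5 in aRG, 55.1 and 85.3 in bRG, and 309.6 and 229 in N. NRP1, its relative, was at 55.4 and 73.04 CPM in bIP, against 21.95 and 24.9 in aRG, 15.02 and 23.3 in bRG, and 10.9 and 6.08 in N. After bIP, NRP2 was highest in N and NRP1 in radial glia (log2 fold change 2.20, SE 0.23, adjusted p = 0.00133 for NRP2; log2 fold change 2.04, SE 0.27, adjusted p = 0.0045, and 0.0758 without bIP library 2 for NRP1). Of 11 plexins and neuropilins tested, 6 were peak genes: PLXNA2, PLXNA3, PLXNA4, PLXNB2, NRP1 and NRP2. This family was picked after its values were seen, and 4 of the 6 passed the test, PLXNA3 (adjusted p = 0.161) and PLXNB2 (adjusted p = 0.233) being the exceptions. With the block PLXNA3 passed (adjusted p = 0.0125), as did PLXNB1, which was no peak gene (adjusted p = 0.00673), while PLXNB2 did not (adjusted p = 0.0546).

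CNTN2, an axonal adhesion molecule also called TAG-1, was at 143 and 311 CPM in bIP, against 15.1 and 25.8 in aRG, 27.8 and 36.3 in bRG, and 24.3 and 54.7 in N. CNTN2 was one of the 16 genes above each other population with the block (adjusted p = 0.00102), and against the mean it rose without the block as well (log2 fold change 2.94, SE 0.32, adjusted p = 0.0017). ROBO1 and ROBO2 are receptors for the repellent SLIT. ROBO1 was at 197 and 295 CPM in bIP, against 64.02 and 89.2 in aRG, 67.6 and 96.7 in bRG, and 134 and 94.2 in N. ROBO2 was at 186 and 390.4 CPM in bIP, against 97.01 and 126 in aRG, 80.4 and 113 in bRG, and 61.5 and 77.6 in N. Both bIP libraries were above all others, with gaps of 1.46 and 1.47 (log2 fold change 1.46, SE 0.24, adjusted p = 0.0134, and 0.281 without bIP library 2 for ROBO1; log2 fold change 1.67, SE 0.26, adjusted p = 0.0105, and 0.334 without bIP library 2 for ROBO2). RND3, an atypical small GTPase that acts on the actin cytoskeleton during migration, was at 117 and 195 CPM in bIP, against 69.6 and 63.8 in aRG, 68.5 and 40.95 in bRG, and 13.02 and 10.05 in N. It was lowest in N (log2 fold change 2.17, SE 0.25, adjusted p = 0.00191). RND2, a related GTPase downstream of NEUROG2 in mice, was at 58.9 and 56.1 CPM in bIP, against 34.6 and 44.2 in aRG, 39.01 and 30.4 in bRG, and 41.8 and 6.77 in N. RND2 did not pass the test (adjusted p = 0.543, edgeR), and it overlaps BRCA1 in the RefSeq annotation.

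DCC, the netrin receptor, was not a peak gene, since its bIP libraries enclosed those of N. DCC was at 65.3 and 119 CPM in bIP, against 6.68 and 8.95 in aRG, 8.94 and 17.2 in bRG, and 92.1 and 74.5 in N. It rose against the mean of the others (log2 fold change 2.17, SE 0.28, adjusted p = 0.00349, and 0.0808 without bIP library 2). MDGA1, an immunoglobulin-family adhesion protein, was at 148 and 109.9 CPM in bIP, against 28.9 and 34.2 in aRG, 32.3 and 36.6 in bRG, and 71.4 and 48.2 in N. FLRT3 and PLXNA2 were peak genes too, with gaps of 1.26 and 1.47. FLRT3, an adhesion protein that binds UNC5 receptors, had an adjusted p of 0.0753 and 0.00213 with the block. FLRT3 was also called in 5 of the 8 fits without 1 library. MDGA1 and PLXNA2 rose (log2 fold change 1.68, SE 0.22, adjusted p = 0.00363 for MDGA1; log2 fold change 1.95, SE 0.30, adjusted p = 0.00987, and 0.0632 without bIP library 2 for PLXNA2).

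Of 24 tested genes of delamination and cell polarity, 4 were peak genes, and these 4 rose, while the other 20 did not pass. The 4 peak genes were INSM1, SCRT2, ZEB1 and AFDN. With the block ZEB2 and CRB1 rose as well (adjusted p = 0.0466 and 0.0475). Over all genes tested 1.54% were peak genes and 0.673% rose, and 4.14% of those at 10 CPM or more in some library were peak genes. SCRT2, a Scratch repressor of the Snail superfamily, was at 149 and 236 CPM in bIP, against 10.2 and 18.8 in aRG, 16.7 and 33.1 in bRG, and 134 and 89.2 in N. ZEB1, a repressor of epithelial polarity genes, was at 145 and 137 CPM in bIP, against 114 and 88.97 in aRG, 117 and 83.5 in bRG, and 24.96 and 11.9 in N. AFDN, the adherens junction protein afadin, was at 878 and 919 CPM in bIP, against 388 and 344 in aRG, 374 and 303 in bRG, and 739 and 574 in N. SCRT2 and AFDN were next highest in N, and ZEB1 in radial glia (log2 fold change 2.49, SE 0.30, adjusted p = 0.00216 for SCRT2; log2 fold change 1.30, SE 0.26, adjusted p = 0.0396, and 0.215 without bIP library 2 for ZEB1; log2 fold change 1.05, SE 0.18, adjusted p = 0.0192, and 0.259 without bIP library 2 for AFDN). The median log2 fold change of the list was 0.06, close to that of all genes.

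Of 21 tested general neuronal genes, 9 were stepwise higher, with bIP between radial glia and N, set beside 2.05% of all genes tested. Against aRG 13 rose, or 16 rose and 1 fell with the block. Against N 6 fell, or 12 fell and 1 rose with the block. Of all genes tested 1.34% rose against aRG and 1.06% fell against N. For all 35382 genes the block gave 1007 higher and 1115 lower than aRG, and 1025 higher and 1140 lower than N. RBFOX3, the neuronal splicing factor NeuN, was a peak gene. RBFOX3 was at 177 and 222 CPM in bIP, against 22.2 and 27.9 in aRG, 33.4 and 53.3 in bRG, and 154 and 120.5 in N. Its N libraries came close to bIP, with a gap of 1.15 (log2 fold change 1.92, SE 0.22, adjusted p = 0.00193). ELAVL4, a neuronal RNA-binding protein of the Hu family, was at 591 and 754 CPM in bIP, against 161 and 160.3 in aRG, 171 and 194 in bRG, and 417 and 341 in N. DCX, a microtubule protein of migrating neurons, was at 1099.8 and 1524 CPM in bIP, against 142 and 290 in aRG, 333 and 560 in bRG, and 1986 and 1642 in N. DCX thus stood between radial glia and N, while ELAVL4 was above both (log2 fold change 1.59, SE 0.18, adjusted p = 0.00191 for ELAVL4).

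Among 16 deep-layer neuron genes, 3 were peak genes, 2 were dip genes and 6 were stepwise higher. Against the mean of the others 3 rose, and 9 rose and 2 fell with the block. Of genes at 10 CPM or more in some library 4.14% were peak genes and 5.83% dip genes. Over all genes tested 2.05% were stepwise higher, 0.673% rose and 0.201% fell. FOXP2, a forkhead factor of deep-layer neurons, was at 155 and 169.7 CPM in bIP, against 34.2 and 19.3 in aRG, 33.5 and 19.9 in bRG, and 29.5 and 8.32 in N. Its 6 other libraries overlapped one another and none came near bIP (log2 fold change 2.77, SE 0.36, adjusted p = 0.00363). SLC17A6, the vesicular glutamate transporter VGLUT2, was at 74.1 and 71.4 CPM in bIP, against 5.58 and 8.89 in aRG, 14.5 and 19.2 in bRG, and 55.2 and 64.2 in N. It rose, with N next in order (log2 fold change 1.91, SE 0.23, adjusted p = 0.00256). NFIA, a nuclear factor I gene, was at 7198 and 6281 CPM in bIP, against 2162 and 1984 in aRG, 2028 and 2089 in bRG, and 5162 and 3917 in N. Its mean of 6740 CPM in bIP was the highest of all 544 peak genes (log2 fold change 1.33, SE 0.17, adjusted p = 0.00338, and 0.0539 without bIP library 1). FEZF2, which specifies subcerebral projection neurons, went the other way. It was at 180.2 and 124 CPM in bIP, against 238 and 193 in aRG, 184 and 202 in bRG, and 474 and 464 in N. Its gap was 1.02, and its adjusted p was 0.137, and 0.0174 with the block. TBR1, which follows EOMES in cortical neurons, and BCL11B, the label of the N gate, were stepwise higher.

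Of 26 mitosis genes 24 lay lower in bIP than in all radial glia libraries and higher than in both N libraries, set beside 2.02% of all genes tested. Against aRG 25 of the 26 fell and against bRG 22 fell, while against N 17 rose. These counts stand beside 1.5%, 0.574% and 1.48% of all genes tested, or 1115, 586 and 1025 of 35382 genes with the block. With the block 24 fell against bRG and 19 rose against N. Without the second aRG library 25 fell against aRG as well. Their summed level was 629 and 825 CPM in bIP, against 7557 and 6146 in aRG, 3076 and 2834 in bRG, and 242 and 168 in N. Of 23 tested radial glia genes, 15 fell against aRG (13 without the second aRG library) and 12 against bRG, while 12 rose against N, and with the block these counts were 19, 18 and 18. Of 21 tested genes of cell cycle exit, 4 were peak genes, and 3 of these rose: GADD45G, PLK3 and TP53INP1. With the block CCNG2 rose and KLF6 fell as well. Over all genes tested 1.54% were peak genes and 0.673% rose, and 4.14% of those at 10 CPM or more in some library were peak genes. The median log2 fold change of the list was -0.18 against aRG, -0.01 against bRG and 0.43 against N. GADD45G, a growth arrest gene, was at 24.7 and 10.99 CPM in bIP, against 6.44 and 3.06 in aRG, 3.56 and 2.45 in bRG, and 3.28 and 6.51 in N. TP53INP1, a stress-induced p53 cofactor, was at 95.7 and 115 CPM in bIP, against 33.5 and 48.9 in aRG, 32.5 and 42.9 in bRG, and 66.1 and 38.3 in N. Both had bIP above all others (log2 fold change 2.12, SE 0.44, adjusted p = 0.046, and 0.435 without bIP library 1 for GADD45G; log2 fold change 1.29, SE 0.25, adjusted p = 0.0347, and 0.369 without bIP library 2 for TP53INP1). PLK3, a stress-responsive polo-like kinase, was at 75.6 and 59.8 CPM in bIP, against 18.1 and 16.8 in aRG, 33.3 and 31.4 in bRG, and 56.3 and 39.8 in N (log2 fold change 1.17, SE 0.22, adjusted p = 0.0307, and 0.263 without bIP library 1). CDKN1C, the inhibitor p57, was at 34.1 and 30.9 CPM in bIP, against 9.897 and 16.5 in aRG, 9.32 and 5.98 in bRG, and 22.2 and 1.16 in N. It was a peak gene and did not pass the test (adjusted p = 0.352). Among 14 G1 cyclins, kinases and activators, 0 passed in edgeR or DESeq2 against the mean of the others, with 3 lower at an unadjusted p under 0.05, and E2F3 was a dip gene.

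**Figure D3:**
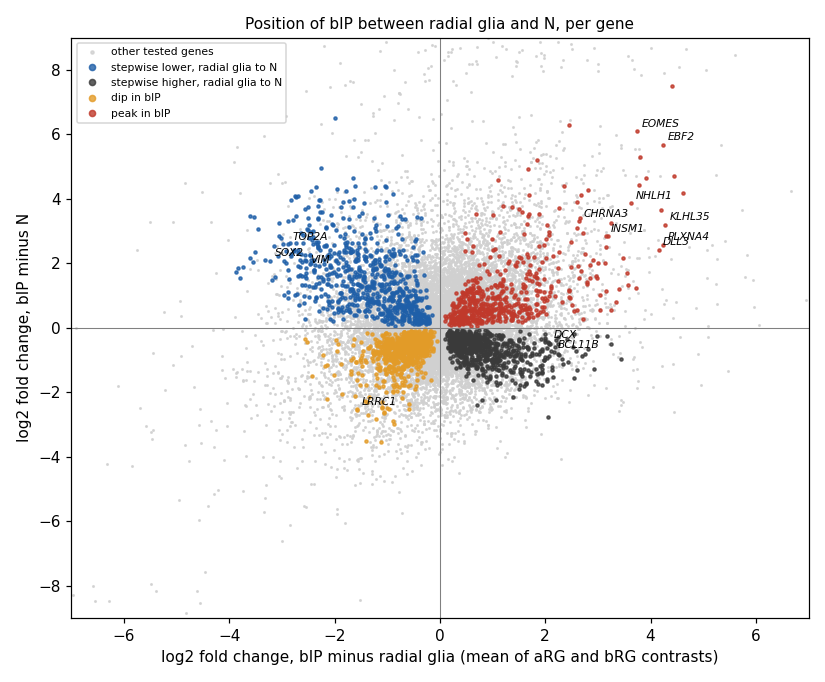
Each dot is 1 of 22994 tested genes at 2 CPM or more in some library, with the log2 fold change of bIP minus radial glia across and of bIP minus N upward; 25 genes fall outside the axes. Peak genes (red) fill the upper right quadrant and dip genes (orange) the lower left, as the rule requires, with mitosis and radial glia genes such as TOP2A and SOX2 in the upper left and DCX and BCL11B in the lower right.

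For 291 of the 544 peak genes (53.5%) N held the highest mean among the other populations, for 175 (32.2%) aRG and for 78 (14.3%) bRG. The mean bIP level of peak genes ran from 10.8 to 6740 CPM with a median of 59.6. The higher bIP library was a median of 1.16 times the lower one, and library 2 was the higher in 368 of 544. Of the 58 peak genes with a gap of at least 2, 23 reached 3 and 5 reached 5. Peak genes outside the lists, named here after their values were seen, included SOX11, a SOXC factor of newborn neurons, at a mean of 3316 CPM in bIP with a gap of 1.89. The acid-sensing channel ASIC1 had a gap of 1.87 and the teneurin TENM4 one of 1.62. The calcium channel subunits CACNA2D1 and CACNA1G had gaps of 1.92 and 1.81. Of the 430 peak genes also named in the table counted on the human genome, 406 (94.4%) were peak genes there too, from the same libraries.

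Dip genes were lower in bIP than in radial glia and N alike, mostly by small steps. The mean bIP level of the 767 genes ran from 5.51 to 629 CPM with a median of 33.9, and 36 had a gap of at least 1.5. LRRC1, a leucine-rich repeat scaffold related to Scribble, was at 11.9 and 12.2 CPM in bIP, against 33.5 and 35.1 in aRG, 36.3 and 37.9 in bRG, and 30.6 and 109 in N. It had the widest gap, 2.40, and did not pass the test against the mean (log2 fold change -1.89, SE 0.42, adjusted p = 0.062) but did with the block (adjusted p = 0.0136). NR3C1, the glucocorticoid receptor, was at 5.93 and 5.89 CPM in bIP, against 22.98 and 15.6 in aRG, 14.2 and 18.1 in bRG, and 39.7 and 30.3 in N. NR3C1 fell, with N highest (log2 fold change -1.91, SE 0.33, adjusted p = 0.0183, and 0.191 without bIP library 2).

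**Figure D4:**
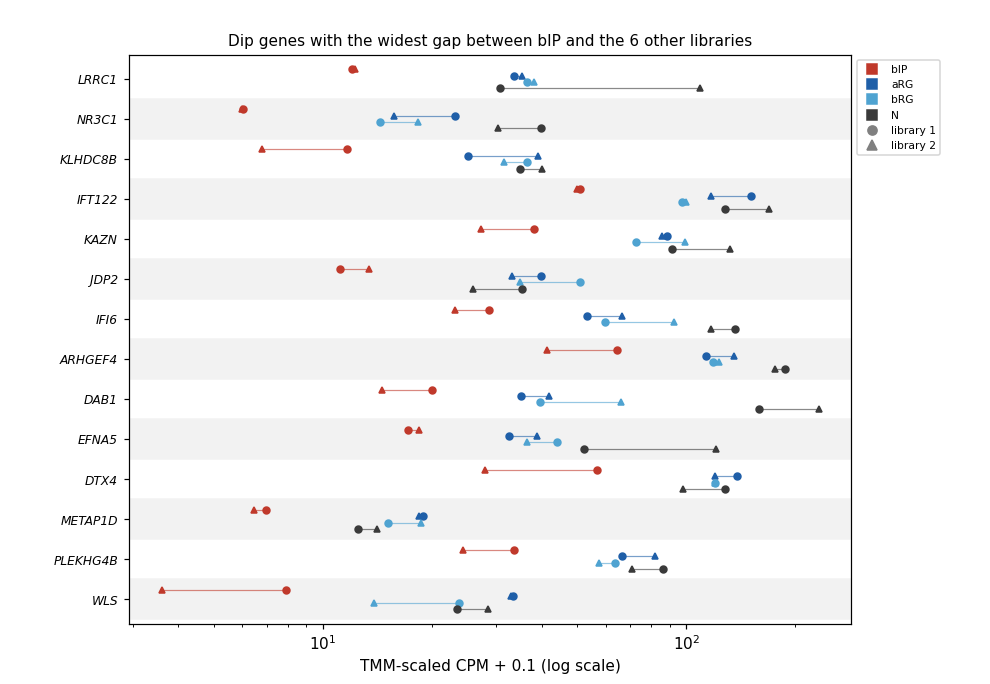
TMM-scaled CPM plus 0.1, on a log axis, of 14 of the 15 dip genes with a regular symbol and the widest gap, in the 2 libraries of bIP (red), aRG, bRG and N. Both bIP libraries lie to the left of the other 6 in every row, by a factor of 2.40 for LRRC1 and 1.67 for WLS with 1 CPM added.

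DAB1, the intracellular adaptor of reelin signalling, was the 1 migration gene that fell. DAB1 was at 19.8 and 14.5 CPM in bIP, against 34.95 and 41.9 in aRG, 39.4 and 66.1 in bRG, and 159 and 231 in N. N was far above the rest, and bIP was below both kinds of radial glia (log2 fold change -2.10, SE 0.30, adjusted p = 0.0069, and 0.107 without bIP library 2). WLS, the carrier that Wnt proteins need for secretion, was at 7.796 and 3.49 CPM in bIP, against 33.3 and 32.8 in aRG, 23.6 and 13.7 in bRG, and 23.3 and 28.5 in N. RSPO3, a secreted enhancer of Wnt signalling, was at 8.69 and 6.52 CPM in bIP, against 21.6 and 29.95 in aRG, 18.3 and 18.2 in bRG, and 13.3 and 39.1 in N. WLS fell (log2 fold change -2.16, SE 0.39, adjusted p = 0.0247, and 0.281 without bIP library 2), and RSPO3 did not pass (adjusted p = 0.127, and 0.0499 with the block). DTX4, a Deltex ubiquitin ligase linked to Notch, was at 56.9 and 27.9 CPM in bIP, against 138 and 119.6 in aRG, 119.9 and 120.3 in bRG, and 128 and 97.7 in N. DTX4 fell as well (log2 fold change -1.51, SE 0.29, adjusted p = 0.0326, and 0.386 without bIP library 2). IFT122, a subunit of the complex that carries cargo in cilia, was at 51.002 and 49.9 CPM in bIP, against 151 and 117 in aRG, 97.4 and 99.7 in bRG, and 128 and 169 in N. Over all genes tested 2.17% were dip genes, and 5.83% of those at 10 CPM or more in some library. Of 14 intraflagellar transport genes, a family picked after its values were seen, 3 were dip genes and only IFT122 passed the test, 2 genes being lower with the block (log2 fold change -1.31, SE 0.23, adjusted p = 0.0183, and 0.257 without bIP library 2).

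KLHDC8B, a kelch-domain protein, was at 11.5 and 6.68 CPM in bIP, against 25.02 and 38.9 in aRG, 36.4 and 31.5 in bRG, and 34.9 and 40.1 in N. JDP2, a repressor of the AP-1 family, was at 11.1 and 13.3 CPM in bIP, against 39.7 and 32.99 in aRG, 50.96 and 34.7 in bRG, and 35.3 and 25.8 in N. IFI6, an interferon-induced protein, was at 28.5 and 23.01 CPM in bIP, against 53.4 and 66.6 in aRG, 59.6 and 92.4 in bRG, and 136 and 117 in N. The 3 genes fell, JDP2 being highest in the first bRG library and IFI6 in N (log2 fold change -1.92, SE 0.33, adjusted p = 0.0183, and 0.259 without bIP library 2 for KLHDC8B; log2 fold change -1.57, SE 0.30, adjusted p = 0.0287, and 0.191 without bIP library 2 for JDP2; log2 fold change -1.69, SE 0.26, adjusted p = 0.0105, and 0.178 without bIP library 2 for IFI6). Of the other widest dips, KAZN, ARHGEF4 and PLEKHG4B, the last 2 exchange factors for small GTPases, fell, with log2 fold changes of -1.53, -1.40 and -1.29. Their adjusted p were 0.0183, 0.018 and 0.0307, and without the second bIP library 0.297, 0.334 and 0.432. EFNA5, an ephrin, and METAP1D, a mitochondrial methionine aminopeptidase, missed the threshold (adjusted p = 0.0596 and 0.115) and passed with the block (0.0118 and 0.0446).

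Among list members, NCAM1, a neural adhesion molecule, was a dip gene. NCAM1 was at 435 and 452 CPM in bIP, against 726 and 1073 in aRG, 702 and 950.5 in bRG, and 816 and 1296 in N. Its adjusted p was 0.0893, and 0.00253 with the block. LIG1 and MCM6, which join and unwind DNA at replication, were dip genes among 25 replication genes, though MCM6 was not with unscaled CPM. LIG1 was at 35.6 and 37.8 CPM in bIP, against 78.1 and 121 in aRG, 83.9 and 119 in bRG, and 67.4 and 52.6 in N. By edgeR 0 of the 25 passed against the mean of the others, with 7 lower at an unadjusted p under 0.05, while 2 fell in DESeq2 and 5 with the block. Stepwise lower, with bIP between radial glia and N, were 9 of the 25, set beside 2.02% of all genes tested. Against aRG 8 fell and against bRG 4, while 4 rose against N, and with the block 17, 12 and 8. These counts stand beside 1.5%, 0.574% and 1.48% of all genes tested, or 1115, 586 and 1025 of 35382 genes with the block. Of all genes at 10 CPM or more in some library 5.83% were dip genes. HSPH1 and DNAJB1, chaperone genes, were the dip genes among 19 stress genes, of which 0 passed in edgeR against the mean. At an unadjusted p under 0.05 there were 1 higher and 6 lower, in DESeq2 3 fell, and with the block 1 rose and 3 fell. The adjusted p were 0.161 for HSPH1 and 0.117 for DNAJB1, and 0.0336 and 0.0124 with the block. Among dip genes the highest of the other populations was aRG for 342, N for 305 and bRG for 120. In the table counted on the human genome, 482 of 699 dip genes found there (69%) were dip genes again.

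**Figure D5:**
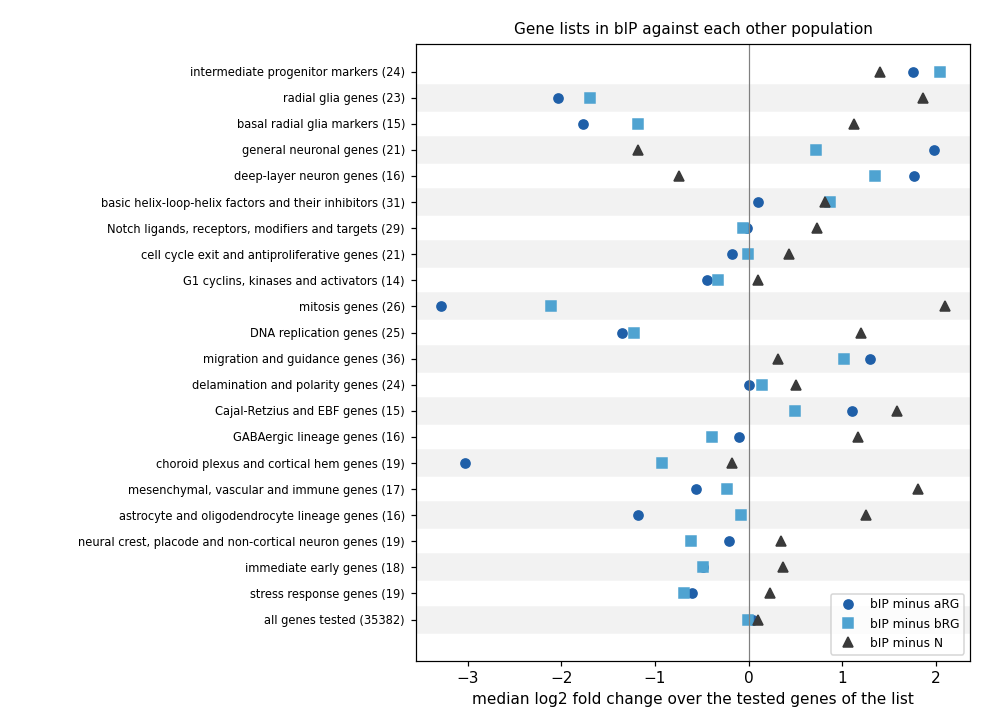
Median log2 fold change over the tested genes of each list (number in parentheses) for bIP minus aRG (circles), bIP minus bRG (squares) and bIP minus N (triangles). Intermediate progenitor markers lie to the right of 0 in all 3 contrasts (1.76, 2.05 and 1.41), while mitosis genes lie to the left against radial glia and to the right against N.

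The following lists of other cell types that a bIP gate could hold had no peak gene. Over all genes tested 1.54% were peak genes, 2.17% dip genes and 0.873% called against the mean of the others. Lists this short and low in level could hold 0 by those shares alone. The share of such cells in bIP was therefore not tested by these counts. Among 16 tested GABAergic lineage genes 0 passed against the mean of the others by edgeR, with 1 higher and 1 lower at an unadjusted p under 0.05 and 1 higher in DESeq2. Their summed level was 94.7 and 50.5 CPM in bIP, against 208 and 183 in aRG, 187 and 146 in bRG, and 22.6 and 26.0 in N. In edgeR and DESeq2 alike 0 of 16 astrocyte and oligodendrocyte genes and 0 of 19 neural crest, placode and non-cortical genes passed, with 2 and 0 of them lower at an unadjusted p under 0.05. The first list summed to 67.1 and 56.9 CPM in bIP, against 162 and 177 in aRG, 161 and 109.97 in bRG, and 40.03 and 29.5 in N. The second summed to 64.7 and 62.5 CPM in bIP, against 137 and 107 in aRG, 141 and 91.6 in bRG, and 52.7 and 46.5 in N. Choroid plexus and hem genes had a median log2 fold change of -3.03 against aRG, -0.93 against bRG and -0.17 against N. The last of these changed sign with unscaled CPM, which raises bIP minus N by 0.20 (log2) and moves bIP minus bRG by -0.10. Of those 19 genes 7 fell against aRG, or 12 with the block, and RSPO3 and MSX1 were dip genes. Of all genes tested 1.5% fell against aRG, or 1115 of 35382 with the block. Without the second aRG library the median log2 fold change of the 19 genes against aRG was -2.38. Of 18 tested immediate early genes 1 fell against the mean, FOS, with 0.465 and 2.24 CPM in bIP, against 60.9 and 37.2 in aRG, 48.2 and 36.1 in bRG, and 5.06 and 0.905 in N (log2 fold change -3.76, SE 0.72, adjusted p = 0.032, and 0.105 without bIP library 1).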

How the data were processed

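Bulk RNA-seq of 8 libraries was analysed, 2 each of bIP, aRG, bRG and N. The deposited tables hold raw read counts by gene symbol against 2 genomes, produced with STAR on panTro6 and hg38, per the submitters' processing notes. The STAR version, annotation, counter and strand setting are not given there. The panTro6 counts were used as the main table and the hg38 counts as an alternative. Its values of 2 (21576) outnumber values of 1 (16443), so halved counts were also tried. A row without a gene name (0.00545% to 0.00771% of counts) was left out, and 0 sample columns were left unused.

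Genes were filtered with filterByExpr and scaled with TMM. A model with 1 coefficient per population was fitted with edgeR 4.0.16 (R 4.3.3, limma 3.58.1; two-sided glmQLFTest, Benjamini-Hochberg adjustment, threshold 0.05, 4 residual degrees of freedom, common biological coefficient of variation 0.629). Fold changes are log2, bIP minus the mean of the 3 other population coefficients. The largest p of the 3 single contrasts served the test against each population. DESeq2 1.42.0, its size factors, other filters, other CPM limits and omission of each library were alternatives. The code was tested on simulated data.

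The library numbers come from the sample titles. Deviations of same-numbered libraries from their population means correlated in each of the 6 pairs of populations (0.123 to 0.267), so the numbers were taken to pair the libraries, and blocked values stand beside results whose call or count they change.

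The peak and dip rule, the gene lists and the families were chosen with earlier results of these data known. Named genes were the 20 peak and 15 dip genes with a regular symbol and the widest gap, every peak or dip gene of a list, and up to 5 genes per list with the smallest p. Some of these genes are not reported here. Of these 148 genes, 62 overlap another gene in RefSeq (NHGRI_mPanTro3-v2.0, used for names and neighbours), and such reads cannot be assigned without strand. Promoter and protein sequences were not analysed here. Without molecular identifiers counts include PCR copies, so the floor of 3 counts covers counting error only.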

Additional observations from a re-analysis of the deposited data

How the results depend on the processing

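Counts of genes higher and lower than the mean of the others (238 and 71) changed by less than 1.5 times with DESeq2 size factors, with a filter of 5 CPM, on the human genome and with halved counts. They were 532 and 370 with the replicate block, 675 and 438 with the block and the 5 CPM filter together (a setting chosen after seeing the data), 686 and 486 without a low-count filter, and 533 and 522 in DESeq2. The counts beyond each population (0 and 0) were 16 and 1 with the block, 16 and 1 with the block and the 5 CPM filter, 63 and 11 without a filter, and 47 and 3 in DESeq2. Leaving out 1 library gave 64 to 352 higher and 14 to 152 lower against the mean, lowest without bIP library 2 and highest without N library 1. Without bIP library 1 there were 153 and 44, and the lower count was also over 1.5 times the full one without either bRG library (151 and 118) or N library 2 (126). Beyond each population it gave 0 to 8 higher (8 without bRG library 2) and 0 lower. Requiring a 1.5-fold difference between the sides left 113 peak and 43 dip genes. Omitting 1 library, which by construction relaxes the rule, gave 563 to 1327 peak genes (1327 without bIP library 1, 1161 without bIP library 2, 837 without N library 1) and 839 to 1892 dip genes (1892 and 1479 without bIP library 1 and 2). Other limits on CPM, unscaled CPM and the human genome table kept both counts within 1.5 times. For the other counts the cause was not tested.

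Over the 148 named genes, 2045 of the alternative fits kept direction and call, 77 lost the call, 218 gained it and 2 changed sign. The changes of sign were the log2 fold changes of TWIST1 (-0.025 to 2.21 with 1 library left out) and PRRX1 (-0.20 to 1.48), both lowest without bIP library 2 and both at low counts. The block ended no call of a named gene and added 34. Depth was similar across libraries. The limit is 2 libraries per population from 1 line, and genes of a few CPM.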

Other observations

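Further families were looked at after their values were seen. Of 88 potassium channel genes tested, 7 were peak genes and 3 dip genes (8 and 3 with unscaled CPM), and 6 rose against the mean of the others by edgeR, adjusted p under 0.05, or 7 rose and 2 fell with the library number as a block. Over all genes tested 1.54% were peak genes, 2.17% dip genes and 0.673% rose, and of genes at 10 CPM or more in some library 4.14% were peak and 5.83% dip genes. KCND3, which carries an A-type current, was at 93.1 and 122 CPM in bIP, against 22.7 and 31.9 in aRG, 31.6 and 53.5 in bRG, and 55.4 and 59.5 in N (log2 fold change 1.41, adjusted p = 0.0181, and 0.283 without bIP library 2). KCNN3, a calcium-activated channel, was at 133 and 152 CPM in bIP, against 26.5 and 38.9 in aRG, 40.02 and 55.5 in bRG, and 65.6 and 104 in N (log2 fold change 1.48, adjusted p = 0.0125, and 0.15 without bIP library 2). Both bIP libraries lay above all others for each channel, with N next.

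Several housekeeping families held dip genes that did not pass the test against the mean of the others in edgeR or DESeq2, while with the library number as a block GART, MRPS26 and EXOSC2 fell (adjusted p = 0.0438, 0.0297 and 0.0474). The dip counts below stand beside 2.17% of all genes tested and 5.83% of those at 10 CPM or more in some library. De novo purine synthesis contributed PPAT, GART and PFAS, 3 of its 6 genes, both with and without TMM scaling, and 4 of the 6 were lower at an unadjusted p under 0.05. GART was at 83.7 and 83.0 CPM in bIP, against 123 and 112 in aRG, 129 and 125 in bRG, and 147 and 158 in N (log2 fold change -0.66, adjusted p = 0.2). Of 72 mitochondrial ribosomal protein genes 10 were dip genes and 1 a peak gene, and 7 were dip genes with unscaled CPM, with 5 lower at an unadjusted p under 0.05. The RNA exosome contributed 4 of 10 genes, or 3 with unscaled CPM, with 3 lower at an unadjusted p under 0.05.

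In RefSeq order 36 pairs of adjacent genes were both peak genes, among them ROBO2 with ROBO1, the amino acid transporters SLC38A2 with SLC38A1, and KCNJ11 with ABCC8, the 2 subunits of an ATP-sensitive potassium channel. Among dip genes there were 45 such pairs, including the mitochondrial chaperonins HSPD1 and HSPE1. The next gene in order was a peak gene for 8.39% of peak genes, against 2.73% of all genes at 10 CPM or more in some library, and a dip gene for 6.29% of dip genes, against 4.47%. Overlap of transcripts cannot be told apart from separate expression in these unstranded libraries.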
